A study of Macaca mulatta with 13 samples.

Results

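The genes described here are 7 chemokine receptors that guide leukocytes into tissue, CXCR4, CXCR3, CXCR6, CCR2, CCR6, CCR9 and CCR10, measured in single colon leukocytes of the rhesus macaque (Macaca mulatta). All 7 were found by symbol among the 34628 genes of the deposited raw matrix. They were counted in T cells (at least 3 UMIs of CD3D, CD3E and CD3G together), B cells (at least 2 UMIs of MS4A1 and CD79A together) and plasma cells (JCHAIN at 1% or more of a cell's UMIs). A UMI, or unique molecular identifier, marks 1 captured RNA molecule. Levels are UMIs of a gene per 1000000 UMIs of the same cells (CPM).

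The study is on GVHD, graft-versus-host disease, a condition where transplanted immune cells attack the recipient's tissues. Its samples were viable CD45-positive cells of thawed colon, from macaques after transplantation of blood-forming cells of another animal and from untransplanted healthy controls. In the animals with GVHD the cells were either parted into donor and host fractions by the tissue antigen MAMU-A001 or left combined, and sorted cells were negative for an antibody label marked IVas. The labels name 3 combined host and donor libraries, 2 donor, 4 host and 4 healthy control libraries. Age, agents given and the animal behind each fraction are not given in the labels, and since 2 GVHD colons were parted, some donor and host libraries may share an animal. P-values therefore measure only the spread between libraries.

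The deposited matrix numbers its libraries 1 to 13 and does not state which label belongs to which number. Groups were inferred by taking the numbers in the order of the labels, which makes libraries 10, 12 and 13 combined GVHD, 2 and 5 donor, 1, 6 and 7 host, and 3, 8, 9 and 11 healthy. Libraries 4 and 6 shared 5323 cell barcodes, where the other 20 pairs among libraries 1 to 7 shared 6 to 55, and in the order of the labels they are the 2 host samples titled with the same number. Library 4 was left out. The 42 pairs across libraries 1 to 7 and 8 to 13 shared 0 to 3 barcodes and the 15 pairs within the second set 1 to 10, and the numbers in the labels change from the 40s to the 60s at the same place. Beyond libraries 4 and 6, nothing of this kind checks the order within either set, so every comparison of groups below rests on an inference. Comparisons of cell classes within a library do not need it. The donor and host libraries all lie in the first barcode set, the combined GVHD libraries all in the second, and of the healthy libraries number 3 lies in the first and numbers 8, 9 and 11 in the second.

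The 12 libraries held 3205412 to 19655788 UMIs each and 20567 cells that the authors kept, of which 11234 met the T rule alone, 3780 the B rule alone and 1241 the plasma rule alone. The 2549 cells that met several rules, with a median of 10917 UMIs, were left out, because 2 cells in 1 droplet cannot be told from 1 cell there. The median was 9506 UMIs in plasma cells, 3102 in T cells and 3337 in B cells. Markers that the rules did not use fitted the classes, with MZB1 at 2729 CPM in plasma cells against 43.6 in T cells and 217 in B cells, TRAC at 1112 CPM in T cells against 35.3 in B cells, and CD79B at 1414 CPM in B cells against 16.8 in T cells. CD5 in T cells and SDC1 in plasma cells were low, at 1.94 and 3.43 CPM. A library entered a comparison with at least 20 cells of the class, which left out library 7 with 3 T cells, so the host group is libraries 1 and 6. T cells carried RNA of other cell types unevenly. The 6 myeloid markers summed to 3839, 1812 and 1703 CPM in the T cells of libraries 1, 5 and 12 and to between 0 and 4.47 CPM in the others, and the 4 epithelial markers found summed to 175 and 402 CPM in libraries 1 and 6 and to at most 6.32 CPM elsewhere.

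Chemokine receptors are G-protein-coupled receptors that turn a cell towards the source of a small secreted protein, its chemokine ligand. CXCR4 answers CXCL12 and is carried by most leukocytes. CCR6 answers CCL20, which the epithelium over gut lymphoid tissue makes, and marks B cells and interleukin-17-producing T cells. CCR10, through CCL28, brings IgA plasma cells to the colon, and CCR9, through CCL25, brings lymphocytes to the small bowel. CCR2 answers CCL2 and draws monocytes and some activated T cells to inflamed tissue. CXCR3 marks type 1 effector T cells and CXCR6, the receptor for CXCL16, marks many resident memory T cells.

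In these colon leukocytes CXCR4, CCR6 and CCR10 were measured well, CCR2 and CCR9 poorly, and CXCR3 and CXCR6 were too low to measure. Over all kept cells of the 12 libraries the files held 14663 UMIs of CXCR4, 7246 of CCR10, 2746 of CCR6, 413 of CCR2 and 134 of CCR9, but only 17 of CXCR3 and 16 of CXCR6. CXCR3 was seen in 13 of 11234 T cells (0.116%, exact 95% interval 0.0616 to 0.198) and CXCR6 in 15 (0.134%, 0.0748 to 0.22), and neither had a UMI among the 1241 plasma cells or the 3780 B cells. A count of 0 among the plasma cells allows up to 0.224 CPM and among the B cells up to 0.186 CPM, at 3 counts over the class. No T cell held more than 1 UMI of either gene. All such intervals and limits cover counting error only. Low values here concern the molecules that the authors' counting assigned to these genes, and a reference to check the gene models was not used here. RefSeq's gene table, used here for names and positions only, has CXCR6 overlapping FYCO1 and CCR9 overlapping LOC144339135. Whether these overlaps lower their counts was not tested.

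**Figure D1:**
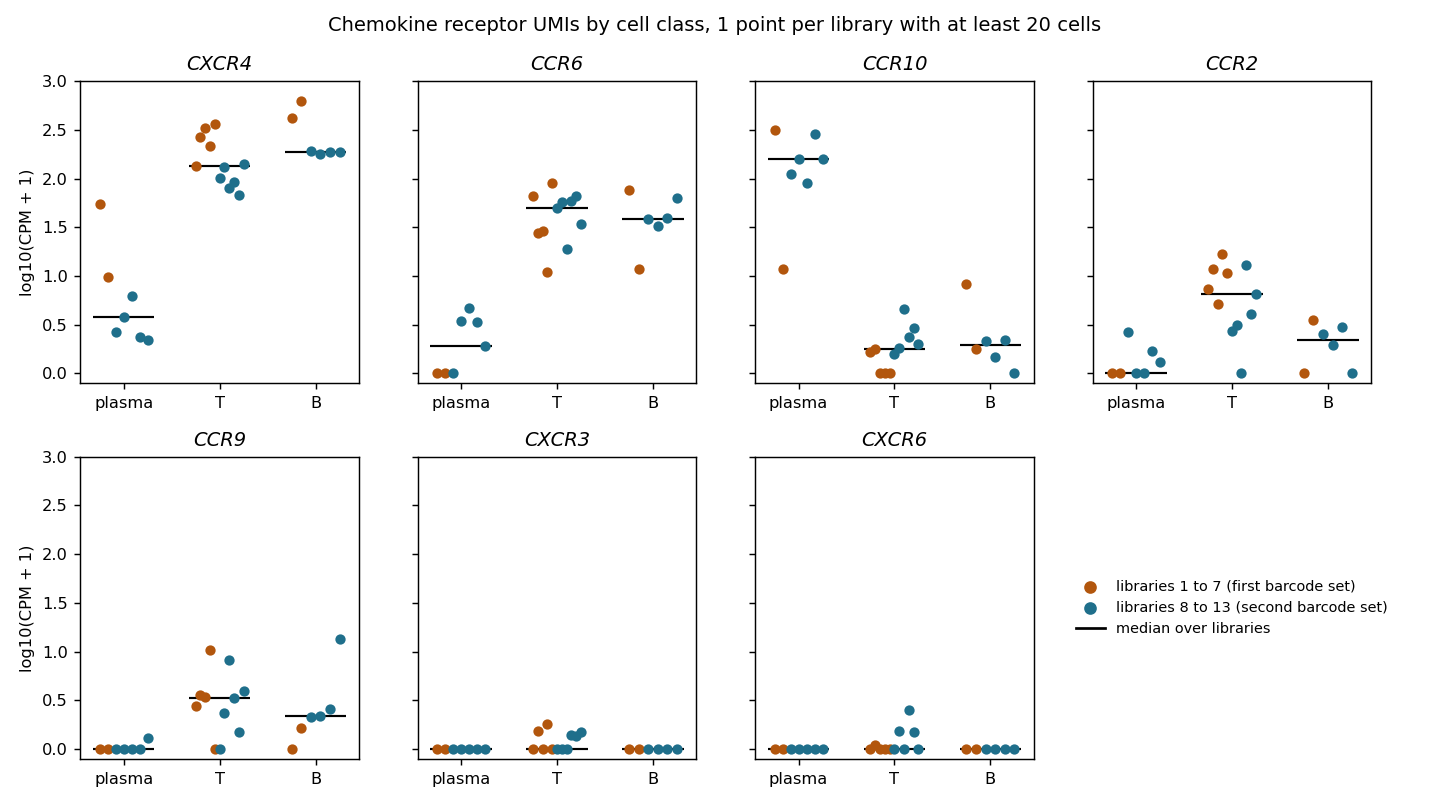
Level of each receptor, as log10(CPM + 1), in plasma, T and B cells, with 1 point per library of at least 20 cells, coloured by barcode set, and the median as a line. CCR10 stands at 10.9 to 311 CPM in plasma cells and at most 3.60 CPM in T cells, CXCR4 and CCR6 stand lower in plasma cells than in T and B cells, and CXCR3 and CXCR6 lie at or near 0 throughout.

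CCR10 was carried by plasma cells and nearly absent elsewhere. Its plasma-cell level was 311, 10.9, 111, 156, 89.7, 285 and 159 CPM in libraries 2, 5, 8, 10, 11, 12 and 13. T cells of the same libraries held 0 to 3.60 CPM. So every plasma-cell value lay above every T-cell value, and within libraries CCR10 was higher in plasma cells in 7 of 7 (160 ± 106 CPM against 1.32 ± 1.18 CPM in T cells, SD, n = 7 libraries, log2 fold change 8.61, SE 0.27, adjusted p = 3.1e-12). Against B cells it was higher in 4 of 4 libraries, at 199 ± 115 CPM in plasma cells and 2.39 ± 3.26 CPM in B cells (SD, n = 4, log2 fold change 7.75, SE 0.37, adjusted p = 2.91e-08). In both comparisons CCR10 passed the filter on low counts only through its plasma-cell sums. Both adjusted p-values are therefore no separate support for the difference. A UMI of CCR10 was found in 61.6% of plasma cells (58.9 to 64.4), 0.356% of T cells (0.254 to 0.485) and 0.397% of B cells. With each cell thinned to 1500 UMIs the share was 19.5% of plasma cells, 0.151% of T cells and 0.0529% of B cells, and none of 177 epithelial cells held one, which allows 4.95 CPM. RefSeq's gene table also has CCR10 overlapping PSMC3IP and LOC144335716, and the sources used here do not give whether counting was by strand.

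CXCR4 and CCR6 were lower in plasma cells than in either other class. CXCR4 was 53.6, 8.72, 1.68, 2.82, 5.24, 1.37 and 1.21 CPM in plasma cells of libraries 2, 5, 8, 10, 11, 12 and 13, where T cells held 67.3 to 266 CPM. The groups did not overlap, and the log2 fold change of plasma against T cells was -3.24 (SE 0.36, adjusted p = 1.35e-06, lower in 7 of 7). CCR6 was 0 to 3.74 CPM in plasma cells and 9.9 to 65.2 CPM in T cells, with a log2 fold change of -3.19 (SE 0.37, adjusted p = 2.62e-06, lower in 7 of 7). Against B cells, the log2 fold change was -3.61 for CXCR4 (SE 0.47, adjusted p = 5e-05) and -3.31 for CCR6 (SE 0.56, adjusted p = 0.000448), each lower in plasma cells in 4 of 4 libraries. A CXCR4 UMI was found in 3.06% of plasma cells and 3.95% of 177 epithelial cells, at median depths of 9506 and 2905 UMIs, and 128 and 27 of those epithelial cells came from libraries 1 and 6. Library 2 stood apart, with a CXCR4 UMI in 26.7% of its 45 plasma cells (14.6 to 41.9). Those differences were 3 of 3 tested members in each comparison, read against 56.5% of the 6892 genes tested between plasma and T cells and 35.3% of the 6456 tested between plasma and B cells. Each of the 3 passed the filter on low counts only through the class where it was higher. The 3 of 3, and the adjusted p-values of CXCR4 and CCR6, are therefore no separate support for the differences. CCR2, CCR9, CXCR3 and CXCR6 did not pass the filter on low counts in either comparison.

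Plasma cells make much antibody RNA, and CPM sets every gene against the total of its cells. The fits used TMM factors, which leave the median gene at a log2 change of -0.11 between plasma and T cells, where library totals alone put it at -1.55. The split of calls was 1750 higher and 2144 lower with TMM factors and 427 higher and 5746 lower with library totals, and against B cells 1152 and 1126 with TMM factors and 265 and 5117 with totals. On library totals the log2 fold changes of plasma against T cells were 7.28 for CCR10, -4.63 for CXCR4 and -4.66 for CCR6, so no direction changed.

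CCR10 differed widely among the plasma cells of different libraries. Counting the 679 cells that met the plasma and B rules as plasma too, which is a choice made after the class sizes were seen, gave 1920 plasma cells at 178 CPM with a CCR10 UMI in 62.1%. On that count combined GVHD libraries 10, 12 and 13 held 158, 297 and 165 CPM. Donor libraries 2 and 5 held 377 and 6.28 CPM, host library 1 held 264 CPM in 28 cells, and healthy libraries 3, 8 and 11 held 2.51, 119 and 96.1 CPM. Libraries 3 and 5 therefore stood far below the others, with a CCR10 UMI in 2.53% of 79 cells and 10.6% of 85 cells against 56.9% to 87.7% in the other 7. In cells of the plasma rule alone, combined GVHD libraries averaged 200 ± 73.8 CPM (SD, n = 3) and healthy libraries 101 ± 15.3 CPM (SD, n = 2), and all 3 combined values lay above both healthy ones. The log2 fold change was 0.87 (SE 0.80, adjusted p = 0.756), so the difference did not pass. In this comparison 0% of the 6074 genes passed edgeR's quasi-likelihood test, with 630 at an unadjusted p under 0.05, and no other tool was run on it. CXCR4 in plasma cells was 1.8 ± 0.889 CPM in combined GVHD (n = 3) and 3.46 ± 2.52 CPM in healthy libraries (n = 2), with a log2 fold change of -0.98 (SE 0.86, adjusted p = 0.737).

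**Figure D2:**
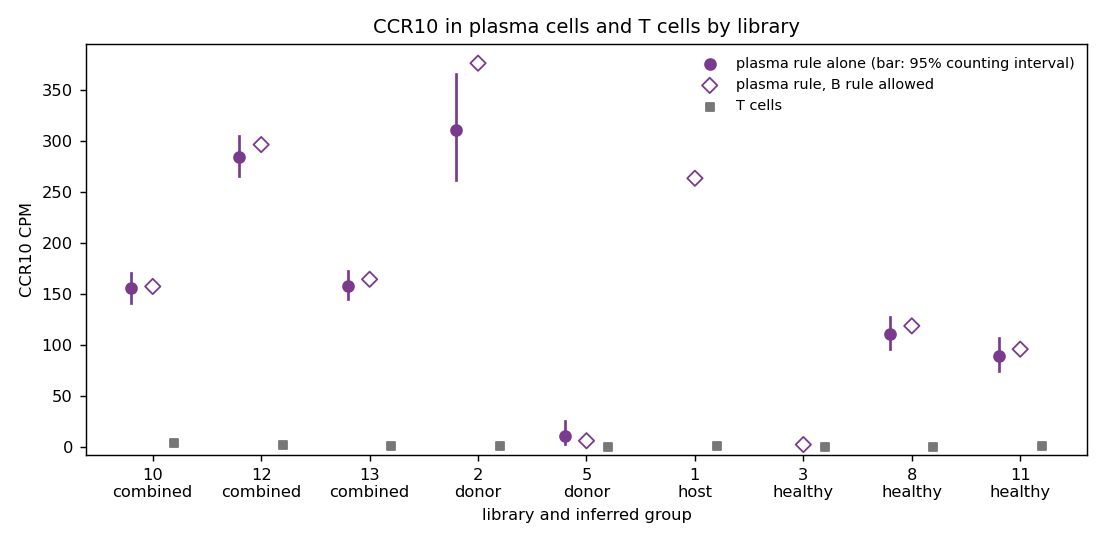
CCR10 level (CPM) by library and inferred group, in cells of the plasma rule alone (filled, with 95% counting intervals), of the plasma rule with the B rule allowed (open) and in T cells (grey). Libraries 3 and 5 lie at 2.51 and 6.28 CPM on the wider rule, where the other 7 lie between 96.1 and 377 CPM.

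The immunoglobulin that led a plasma cell gave no second contrast. IGHA2, the heavy chain of IgA, led in 1188 plasma cells and IGHM, that of IgM, in 50, of which 1 library had at least 20. In that library, number 11, CCR10 was 122 CPM in the 23 IGHM-led cells and 80.2 CPM in the IGHA2-led cells, with no test.

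Of the 7 receptors CXCR4 had the highest pooled level in T and in B cells, at 154 and 358 CPM, and it was lower in T cells. T-cell levels in libraries 2, 3, 8, 9, 11 and 12 were 266, 327, 99.9, 130, 91.5 and 67.3 CPM. B-cell levels in the same libraries were 418, 618, 188, 178, 185 and 187 CPM. Each library had less in T than in B cells although the ranges over libraries overlap, and the log2 fold change of T against B cells was -0.72 (SE 0.15, adjusted p = 0.0033, lower in 6 of 6), where 36.6% of 8894 genes passed. A CXCR4 UMI was found in 28.9% of T cells and 56.3% of B cells, and in 17.2% of T cells and 35% of B cells after thinning. These pooled values weigh libraries unevenly. Library 3 gave 1450 of the 3780 B cells (77.3% with a UMI) and 386 of the 11234 T cells (48.4%). In libraries 2, 8, 9, 11 and 12 the B-cell shares were 60%, 38.9%, 44%, 45.1% and 39%. Their T-cell shares were 46.6%, 21.8%, 25.4%, 20.2% and 18.7%. The T to B difference was not past the threshold in the 2 libraries of the first barcode set alone (log2 fold change -0.62, adjusted p = 0.587) and was -0.72 in the 4 of the second (adjusted p = 0.0109). With cells of several rules kept in each class, the value turned to 0.65 (adjusted p = 0.16). The split of all calls was 1751 higher and 1501 lower with TMM factors and 1271 and 2078 with library totals.

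CCR6 did not differ between T and B cells beyond the threshold. It was 26.9, 28, 48.5, 56.5, 57.9 and 65.2 CPM in T cells of libraries 2, 3, 8, 9, 11 and 12, and 75.7, 10.7, 37.4, 31.8, 38.2 and 62.3 CPM in their B cells. T cells had more in 5 of 6 libraries and library 2 had less. The log2 fold change of 0.57 (SE 0.29, adjusted p = 0.148) did not pass, and without library 2 it was 0.87 and passed (adjusted p = 0.00259). A CCR6 UMI was found in 12.4% of T cells (11.8 to 13) and 9.37% of B cells (8.45 to 10.3), against 1 of 177 epithelial cells (0.565%). Among all T cells 338 held UMIs of both CXCR4 and CCR6, of 3243 with CXCR4 and 1391 with CCR6.

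Among other genes of migration, T cells differed from B cells in the same fits. Of 10 tested adhesion and entry partners 6 were higher in T cells and none lower, including ITGA1, a collagen-binding integrin subunit, at 121 CPM in T cells and 3.7 in B cells (log2 fold change 5.49, adjusted p = 1.63e-08), with a list median of 1.49 against 0.01 over all genes, where 36.6% passed in either direction. CXCR5, the receptor that leads B cells into follicles, was 21.5 CPM in T cells and 158 in B cells (log2 fold change -2.91, adjusted p = 0.00013). Plasma cells had less CCR7, which leads cells to lymph nodes, at 1.28 CPM against 122 in T cells (log2 fold change -4.77, adjusted p = 8.76e-10), and more SELPLG, a selectin ligand (log2 fold change 1.75, adjusted p = 9.61e-07, and 0.36 with an adjusted p of 0.082 on library totals). ITGB7, a subunit of the gut-homing integrin, had a log2 fold change of 0.74 with TMM factors (adjusted p = 0.00405) and of -0.67 with library totals. Of 18 tested genes of receptor signalling 1 was higher and 12 lower in plasma than in T cells, with a median of -1.01 against -0.11 over all genes, where 56.5% passed in either direction, among them ARRB2, a beta-arrestin, at -3.10 (adjusted p = 1.98e-08).

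Within T cells, CXCR4 differed between subsets. CD8 cells (a UMI of CD8A or CD8B and none of CD4) held 164, 344, 355, 165, 94, 154, 141, 64.9 and 156 CPM of CXCR4 in libraries 1, 2, 3, 5, 8, 9, 11, 12 and 13. CD4 cells (the reverse) held 128, 194, 340, 225, 72.3, 88.5, 61.3, 60 and 134 CPM. CD8 cells had more in 8 of 9 libraries, library 5 being the exception (182 ± 101 CPM against 145 ± 93.6 CPM in CD4 cells, SD, n = 9, log2 fold change 0.49, SE 0.14, adjusted p = 0.0364), where 9.21% of 5427 genes passed. That call is weak, since it did not hold without any 1 of libraries 2, 8, 9, 11, 12 or 13 (adjusted p 0.0509 to 0.155), in the first barcode set alone (log2 fold change 0.24, adjusted p = 0.816) or on library totals (0.42, adjusted p = 0.065). CCR6 was 35.4 ± 20.8 CPM in CD8 cells and 50.3 CPM in CD4 cells, lower in CD8 cells in 7 of 9 libraries, with a log2 fold change of -0.37 (SE 0.16, adjusted p = 0.19) that did not pass, and without library 12 it was -0.55 and passed (adjusted p = 0.0382). CD8 cells also had less CCL20 (70.5 CPM against 443 in CD4 cells, log2 fold change -2.33, adjusted p = 0.00011) and more ITGAE, the subunit that binds epithelial E-cadherin (151 CPM against 100, log2 fold change 0.64, adjusted p = 0.00336). All calls split into 228 higher and 272 lower with TMM factors and 147 and 370 with totals.

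T cells with a UMI of ITGAE, a marker of cells held in the epithelium, had slightly less CXCR4. It was 134 ± 81.3 CPM in ITGAE-positive cells and 167 CPM in ITGAE-negative cells of the same 10 libraries (log2 fold change -0.32, SE 0.07, adjusted p = 0.00242), where 5.25% of 6729 genes passed. The level was lower in 8 of 10 libraries, with libraries 1 and 13 the exceptions at 134 and 141 CPM in positive cells against 132 and 139 in negative cells. Within the first barcode set the log2 fold change was -0.33 (adjusted p = 0.0514) and within the second -0.28 (adjusted p = 0.145). CCR6 was 40.8 CPM in positive and 40.9 CPM in negative cells (log2 fold change 0.02, SE 0.09, adjusted p = 0.97). CCR7 was lower too, with a log2 fold change of -0.66 (adjusted p = 9.77e-09). Positive cells were deeper, with a median of 3460 UMIs against 2957, and all calls split into 138 higher and 215 lower with TMM factors and 294 and 93 with totals.

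T cells with a UMI of CCR7 had more CXCR4. CCR7-positive cells held 185, 278, 423, 247, 119, 160, 137, 98.9 and 136 CPM in libraries 1, 2, 3, 5, 8, 9, 11, 12 and 13. CCR7-negative cells held 115, 263, 285, 211, 92.4, 110, 81.3, 58.6 and 141 CPM. The level was higher in 8 of 9 libraries, library 13 being the exception (198 ± 103 CPM against 151 CPM, log2 fold change 0.47, SE 0.08, adjusted p = 0.000234), where 7.31% of 7127 genes passed, and it passed without each library in turn. CCR6 was 45.4 CPM in positive and 43 CPM in negative cells (log2 fold change 0.01, SE 0.12, adjusted p = 0.991). ITGAE and ITGA1 were lower (log2 fold changes -0.48 and -0.42, adjusted p = 4.38e-05 and 0.000468), and so was RGS2, which dampens G-protein signals (-0.83, adjusted p = 7.41e-06). Median depths were 3112 UMIs in positive and 3097 in negative cells, and all calls split into 270 higher and 251 lower with TMM factors and 210 and 337 with totals.

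**Figure D3:**
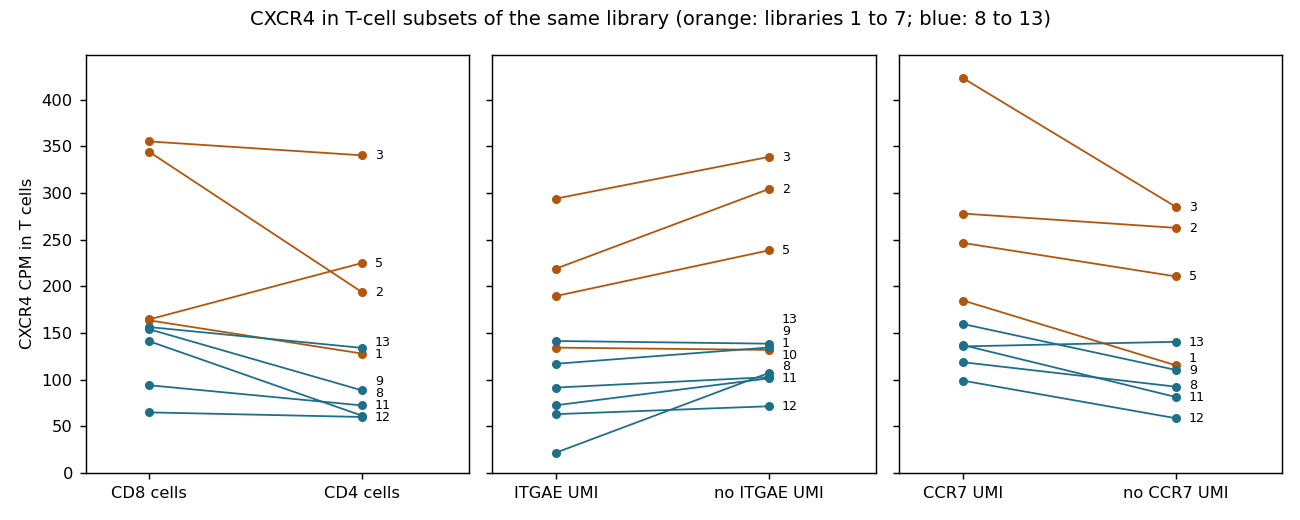
CXCR4 level (CPM) in T-cell subsets, with a line joining the subsets of 1 library, numbered at the right and coloured by barcode set. CXCR4 is higher in CD8 than in CD4 cells in 8 of 9 libraries, lower in ITGAE-positive than in ITGAE-negative cells in 8 of 10, and higher in CCR7-positive than in CCR7-negative cells in 8 of 9.

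Further contrasts, by KLRB1, MKI67 and FCER2, were added after the members' values were seen, and CCR6 was read in each. By KLRB1, a lectin receptor that interleukin-17-producing T cells carry in humans, CCR6 was 46.2 CPM in KLRB1-positive and 43.3 CPM in KLRB1-negative cells of 9 libraries (log2 fold change 0.09, SE 0.17, adjusted p = 0.905), where 1.86% of 7136 genes passed. CXCR4 was 201 CPM in KLRB1-positive and 158 CPM in KLRB1-negative cells (log2 fold change 0.19, SE 0.12, adjusted p = 0.554).

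Among B cells, those with a UMI of MKI67, a gene of dividing cells, held little CCR6. In healthy libraries 3, 8, 9 and 11, CCR6 was 2.29, 4.69, 13.1 and 9.73 CPM in MKI67-positive B cells. MKI67-negative B cells of the same libraries held 15.1, 43.8, 41.8 and 52.1 CPM. The groups did not overlap, and the log2 fold change was -2.46 (SE 0.26, adjusted p = 1.46e-05, lower in 4 of 4), where 31.1% of 7992 genes passed. CCR6 passed the filter on low counts only through the MKI67-negative cells. Its adjusted p is therefore no separate support for the difference. CXCR4 was 286 ± 192 CPM in positive and 300.3 CPM in negative cells (log2 fold change -0.24, SE 0.15, adjusted p = 0.263). Of 8 tested adhesion partners 5 were lower as well and 1 higher, with a median of -1.17 against -0.01 over all genes, where 31.1% passed in either direction. Of the partners that were lower, CD44, a receptor for hyaluronan, had a log2 fold change of -2.88 (adjusted p = 1.01e-06). Positive cells had a median of 5896 UMIs against 3110 in negative cells, and all calls split into 1253 higher and 1232 lower with TMM factors and 1919 and 758 with totals. By FCER2, a marker of naive B cells, CCR6 was 51.9 CPM in FCER2-positive and 39.5 CPM in FCER2-negative B cells of 6 libraries (log2 fold change 0.57, SE 0.18, adjusted p = 0.127), where 1.04% of 5599 genes passed, and CXCR4 there had a log2 fold change of 0.12 (SE 0.12, adjusted p = 0.824).

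**Figure D4:**
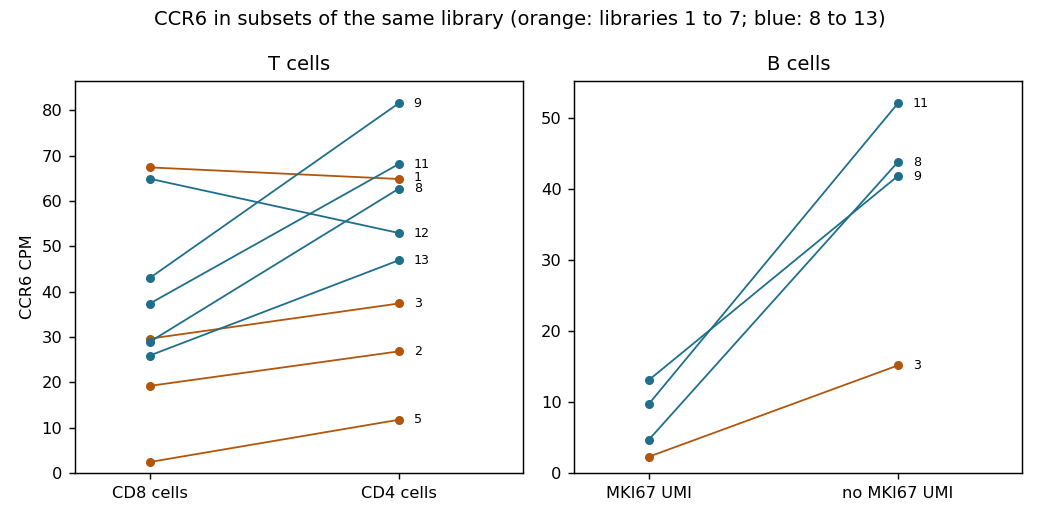
CCR6 level (CPM) in subsets of the same library, joined by lines, for T cells by CD8 and CD4 and for B cells by MKI67. CD8 cells lie below CD4 cells in 7 of 9 libraries, and MKI67-positive B cells lie at 2.29 to 13.1 CPM against 15.1 to 52.1 CPM in MKI67-negative cells.

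Between the inferred groups, none of the 4 receptors tested in T cells, CXCR4, CCR6, CCR2 and CCR9, passed the threshold with all libraries in the fit. T cells of combined GVHD libraries 10, 12 and 13 held 79.2, 67.3 and 140 CPM of CXCR4. Donor libraries 2 and 5 held 266 and 216 CPM, host libraries 1 and 6 held 133 and 363 CPM, and healthy libraries 3, 8, 9 and 11 held 327, 99.9, 130 and 91.5 CPM. Library 3, the healthy library of the first barcode set, stood above the 3 healthy libraries of the second. Combined GVHD T cells averaged 95.4 ± 38.8 CPM (n = 3) and healthy ones 162 ± 111 CPM (n = 4), and the log2 fold change of -1.05 (SE 0.56, adjusted p = 0.938) was -0.28 within the second barcode set (adjusted p = 0.727) and -0.29 without library 3 (adjusted p = 0.994). In that comparison 0.097% of 9274 genes passed. Of donor against healthy T cells CXCR4 had a log2 fold change of 0.63 (SE 0.60, adjusted p = 0.529), where 2.12% passed. Without library 3 it was 1.40 and passed (adjusted p = 0.0306), and within the first barcode set it was -0.52. The means in descending order were host 248 ± 163, donor 241 ± 35.5, healthy 162 ± 111 and combined GVHD 95.4 ± 38.8 CPM, and no neighbours in that order differed beyond their spread. By barcode set the T-cell means were 261 ± 91.3 CPM in the first (SD, n = 5) and 101 ± 28.4 CPM in the second (SD, n = 6). The host and donor libraries all lie in the first set and the combined GVHD libraries in the second. In that order, group and barcode set cannot be told apart.

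CCR6 had its lowest group mean in donor T cells. It was 18, 65.2 and 32.8 CPM in combined GVHD libraries 10, 12 and 13, 26.9 and 9.9 CPM in donor libraries 2 and 5, 65.6 and 88.3 CPM in host libraries 1 and 6, and 28, 48.5, 56.5 and 57.9 CPM in healthy libraries 3, 8, 9 and 11. Both donor values lay below both host values and all 4 healthy ones, while combined GVHD and healthy overlapped. The log2 fold change of donor against host T cells was -1.93 (SE 0.61, unadjusted p = 0.0074, adjusted p = 0.487), where 0.0863% of 9274 genes passed. Of donor against healthy T cells it was -1.24 (SE 0.52, adjusted p = 0.158), and -0.72 within the first barcode set (adjusted p = 1). Library 6 rests on 34 T cells and 9 UMIs of CCR6, and host T cells carried the epithelial RNA given above, whose part in this was not tested. Of combined GVHD against healthy T cells CCR6 had a log2 fold change of -0.36 (SE 0.44, adjusted p = 1), and of host against healthy 0.69 (SE 0.51, adjusted p = 0.597), where 0.377% passed.

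CCR2 and CCR9 were low in T cells and had their highest group means in the donor libraries, at 13.2 ± 3.48 and 6.06 ± 4.85 CPM (SD, n = 2). CCR2 was 0, 3.04 and 5.47 CPM in combined GVHD libraries, 10.7 and 15.7 CPM in donor libraries, 6.35 and 9.81 CPM in host libraries, and 4.11, 1.73, 2.16 and 12 CPM in healthy libraries 3, 8, 9 and 11. The donor and healthy values overlap through library 11, and the log2 fold change was 1.52 (SE 0.65, adjusted p = 0.165). CCR9 was 7.2, 0.486 and 2.98 CPM in combined GVHD, 2.63 and 9.48 CPM in donor, 1.79 and 0 CPM in host, and 2.47, 0, 1.35 and 2.32 CPM in healthy libraries. Both donor values lay above all healthy ones, with a log2 fold change of 2.09 (SE 0.91, adjusted p = 0.174), on 24 and 23 UMIs. CCR9 was found in 0.0806% of plasma cells (0.00204 to 0.448, 1 UMI in 1241 cells), 0.748% of T cells (0.597 to 0.925) and 0.45% of B cells (0.262 to 0.719), at median depths of 9506, 3102 and 3337 UMIs. In T cells of library 5 the share was 3.61% (2.22 to 5.52), and 0 of 177 epithelial cells allows up to 2.06%. In libraries 1, 5 and 12, with the most myeloid RNA in T cells, CCR2 was 6.35, 15.7 and 3.04 CPM. In the other libraries it ran from 0 CPM in library 10 to 12 CPM in library 11. Whether myeloid RNA adds to CCR2 in T cells was not tested. The donor, host and combined GVHD comparisons with healthy controls share the same 4 healthy libraries. Sums per library do not part fewer cells that carry a receptor from fewer molecules in each. For CCR6, the share of T cells with a UMI was 7.98% and 3.43% in donor libraries 2 and 5. It was 18.6% and 17.6% in host libraries 1 and 6. The donor libraries held 245 UMIs in 168 such cells and 24 in 19, and the host libraries 403 in 304 and 9 in 6. Healthy libraries 3, 8, 9 and 11 had shares of 8.29%, 9.95%, 12.5% and 13.4%. Whether the share or the molecules per cell differ between groups was not tested.

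**Figure D5:**
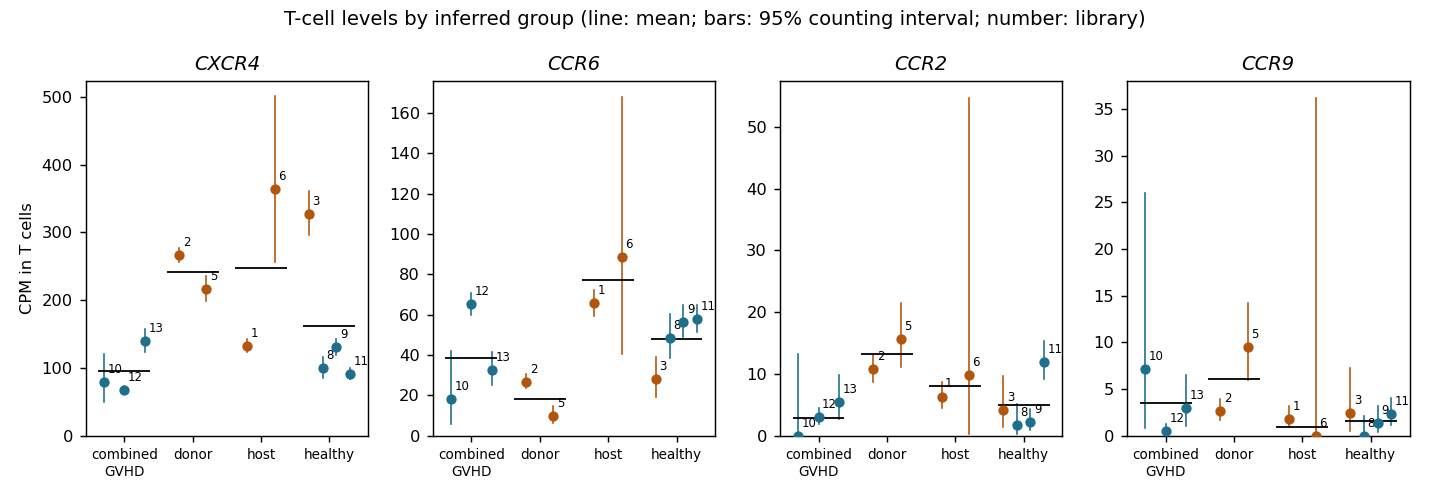
Level (CPM) of CXCR4, CCR6, CCR2 and CCR9 in T cells by inferred group, 1 point per library with its number and 95% counting interval, coloured by barcode set, and the group mean as a line. Both donor libraries lie below both host libraries and all 4 healthy libraries for CCR6 (9.9 and 26.9 CPM), and library 3 lies above the other healthy libraries for CXCR4 (327 CPM).

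Of the receptors' ligands, CCL20 was the 1 of 13 with enough UMIs in T cells to be tested. It was lower in combined GVHD T cells, at 79.2, 81.7 and 60.1 CPM in libraries 10, 12 and 13 against 633, 537, 799 and 294 CPM in healthy libraries 3, 8, 9 and 11. The groups did not overlap, and the log2 fold change was -3.19 (SE 0.53, adjusted p = 0.048), with -3.04 within the second barcode set (adjusted p = 0.0035). Without any 1 of libraries 1, 6, 8, 9, 10, 12 or 13 its adjusted p was 0.062 to 0.367, with log2 fold changes between -3.33 and -2.98. Donor T cells held 68.3 and 151 CPM and host T cells 216 and 118 CPM, and neither group passed against healthy T cells.

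Among the 16 other chemokine receptors, 6 were tested in T cells and 2 differed between donor and healthy libraries, where 2.12% of all 9274 genes passed. CCR3, the eotaxin receptor, was 8.44 and 10.7 CPM in donor libraries 2 and 5 and 0 to 0.541 CPM in healthy ones (adjusted p = 0.0222). It had 77 and 26 UMIs in the donor libraries, 2 in library 1, 2 in library 9 and 0 in the other 7, so a fold would rest on 2 healthy UMIs. Only the donor libraries held enough UMIs of CCR3 to pass the filter on low counts. Its adjusted p is therefore no separate support for the difference. CCR4, a receptor of skin-homing T cells, was 1.21 and 0.412 CPM in donor libraries and 5.75, 13.3, 19.2 and 6.76 CPM in healthy libraries 3, 8, 9 and 11 (log2 fold change -3.47, SE 0.76, adjusted p = 0.0431). SELPLG was 55.7 and 59.8 CPM in donor libraries and 11.6 to 24.7 CPM in healthy ones (log2 fold change 1.73, SE 0.39, adjusted p = 0.0436). With a term for the barcode set the adjusted p was 0.489 for CCR3, 0.641 for CCR4 and 0.682 for SELPLG, on 1 healthy library of the same set. The call was lost without any 1 of libraries 5, 8, 9 or 11 for CCR3, without any 1 of the 11 libraries but number 3 for CCR4, and without any 1 but numbers 2, 3 and 6 for SELPLG, with adjusted p-values up to 0.081, 0.162 and 0.184. On library totals CCR4 and SELPLG did not pass (adjusted p = 0.0563 and 0.0654).

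Levels of other genes ran alongside those of the receptors across the 24 sums of plasma, T and B cells per library. By Pearson's r of log2 CPM among 9001 genes, CXCR4 was most like SZRD1 (0.90), SRSF1 (0.88) and IL16 (0.88). CCR6 was most like SAMSN1 (0.92), PRKCB (0.90) and CHD3 (0.90), and CCR2 most like DENND2D (0.79), MAF (0.78) and TNFSF8 (0.78). The sums share libraries and depth and differ by class, so these values describe and carry no p.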

How the data were processed

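Cell Ranger 3.1.0 made the deposited UMI counts, per the file headers. Seurat 3.1 also appears, with no role stated, among the tools of the submitters' processing notes. The sources used here do not give the genome build. A matrix of natural log values deposited by the authors served only to find the cells they kept (each with at least 1502 UMIs), so any correction in it touches no value here. UMI counts of the kept cells were summed per library and class. Sums were tested with edgeR 4.0.16 (R 4.3.3) by its quasi-likelihood test, with TMM factors, filterByExpr, Benjamini-Hochberg adjustment over all genes tested and a threshold of 0.05. Comparisons of classes had the library as a block, and those of groups in T cells shared 1 fit over the 11 libraries. The SE is the log2 fold change divided by the root of F. Alternatives included DESeq2 1.42.0. Intervals are exact (Poisson, Clopper-Pearson) at 95%. The fits were also run on simulated counts with a single fixed spread and no effect of library or barcode set. That run does not bear on how far barcode sets affect the group comparisons. Named genes are the 7 members, the 3 most alike per member, and up to 4 listed genes per direction past the threshold, by p, of which some are not reported here. Members and lists were chosen with earlier results of these data known. Planned tests of combined GVHD against healthy B cells, and of T against B cells by group, were not made, since 1 combined GVHD library had at least 20 B cells.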

Additional observations from a re-analysis of the deposited data

Results flagged for a closer look

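Library 3, taken as healthy, stood apart from the other healthy libraries in CXCR4, by the gap between the highest value and the next over the range of the 4. Its T cells held 327 CPM and its B cells 618 CPM, with gaps of 0.836 and 0.976 of the range where 0.829 is the critical value. Of 6 such groups looked at, 2 were marked, and chance marks about 1 in 20. Both marks are of the same gene in the same library, so they are not independent. Library 3 is also the 1 healthy library of the first barcode set.

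CCR10 in the cells that met several class rules, which the main comparisons left out, lay above the highest healthy value of 107 CPM in 5 libraries. It was 148, 283 and 156 CPM in combined GVHD libraries 10, 12 and 13, 394 CPM in donor library 2 and 208 CPM in host library 1. Donor library 5 held 4.04 CPM, and healthy libraries 3, 8, 9 and 11 held 0.705, 107, 9.77 and 79.7 CPM. Over all libraries 831 of these cells met the T and B rules and not the plasma rule. How far the share of plasma cells in this class sets its CCR10 level was not tested. In cells that met no rule, CCR2 was 51.5 CPM in donor library 5, on 12 UMIs in 36 cells, against at most 9.9 CPM in healthy libraries.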

How the results depend on the processing

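Over 112 results and 1722 alternative values, plasma-cell CCR10, CXCR4 and CCR6 kept their direction against T and B cells in every setting run (CCR10 did not pass the filter against T cells with cells of the B rule counted as plasma), and the changes listed here concern the other results or the settings named; the cause was not tested. The inferred groups, 2 to 4 libraries each, and barcode sets that part most of them limit every group comparison, and few UMIs limit CCR2 and CCR9.

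With cells of several rules kept in each class, T against B cells gave CXCR4 0.65, RGS16 0.012, RGS19 0.053 and 3 members past the threshold, and plasma against B cells gave CXCR4 -1.81, CCR6 -1.10 and CCR10 0.71 with 0 members past it. T against B cells otherwise had 1 member past it, 3 with no filter on low counts, 2 in barcode set 2, 0 in set 1 (CXCR4 -0.62) and 0 with no block for the library (CXCR4 -0.74). Plasma against T cells had 5 with no filter. On library totals ITGB7, PIK3CG and GPR15 turned to -0.67, -0.52 and -0.30 against T cells and ITGA4 to -0.64 against B cells. CD8 against CD4 cells had 0 members past it on library totals (CXCR4 0.42), in set 1 (0.24) and with no block (0.31). By ITGAE it was 0 in set 1 (CXCR4 -0.33), in set 2 (-0.28) and with no block (-0.36), and by CCR7 it was 2 with no filter and 0 with no block (CXCR4 0.41). CCR6 turned by ITGAE to -0.023 with no filter, -0.11 in set 1 and -0.021 with no block, by CCR7 to -0.020 on totals, -0.064 with no filter and -0.16 in set 1, and by KLRB1 to -0.20 in set 2, where CXCR4 was -0.041.

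In T cells, combined GVHD against healthy CCR9 turned to -0.048 and -0.89 at 2 and 5 CD3 UMIs and -0.21 with all barcodes. Donor against healthy CXCR4 turned to -0.52 in set 1 and -0.54 with the set as a term. Host against healthy CXCR4 turned to -0.70 and -0.75 in those settings, -0.10 with cells of several rules kept and -0.27 with library 6 left out or replaced by library 4, CCR9 to -0.65 and -0.63, and CCR2 to -0.19 with all barcodes. Leaving out 1 library at a time gave, for combined GVHD against healthy T cells, -0.65 to 1.12 for CCR9 and -1.10 to 0.29 for CCR2, and for plasma cells -1.73 to 0.034 for CXCR4. It gave -0.31 to 0.98 for CXCR4 of donor against host, 0 to 1 members past the threshold for donor against healthy, and -5.47 to 0.54 for CCR9 and -0.27 to 1.18 for CXCR4 of host against healthy. Within libraries it gave 1 to 2 members for T against B, 0 to 1 for CD8 against CD4 (CXCR4 0.37 to 0.62), and for CCR6 -0.088 to 0.071 by ITGAE, -0.040 to 0.096 by CCR7 and -0.048 to 0.28 by KLRB1, with -0.045 to 0.24 for CXCR4 by FCER2.

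Counts over all genes moved more. Combined GVHD against healthy T cells had 9 calls and 0 to 262 across settings (60 by DESeq2), donor against host 8 and 1 to 310 (34), donor against healthy 197 and 0 to 2684 (541), and host against healthy 35 and 0 to 763 (111). The highest counts came with no filter on low counts, or without library 3 for the last 2. Of 3252, 3894 and 2278 calls of T against B, plasma against T and plasma against B cells, the lowest settings left 663, 1711 and 4, and with no block the CD8, ITGAE, CCR7, KLRB1, MKI67 and FCER2 contrasts fell to 32, 1, 1, 1, 194 and 1. Comparisons between groups could not be paired, because the labels do not give the animal behind each fraction.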
